A study of Mus musculus with 10 samples.

Results

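The mouse receptors for the constant region of IgG, the Fc gamma receptors, were read in purified circulating neutrophils through all 9 probes that carry the name of Fcgr1, Fcgr2b, Fcgr3, Fcgr4 or Fcer1g. These 9 probes of 5 genes were taken by annotation alone from 45281 probes, which name 19057 genes. Total RNA was measured on 10 Illumina bead arrays, and every mouse was a female of the nude NCR strain, which is athymic and lacks normal T cells. In the fresh groups cells were frozen straight from purification, with 2 arrays for control mice and 2 for mice carrying tumors of the mammary carcinoma line 4T1. Other cells from control mice were kept for 2 h in OptiMEM containing 0.5% FBS, with a single array for each of 6 conditions. The wells had nothing added, mouse CCL2 or mouse CCL5 (20 ng/ml), each without or together with recombinant human G-CSF. The labels do not say separately whether G-CSF went into the wells or to the mice, and they do not say whether arrays of a group came from separate mice, so p-values measure the spread between these arrays, which may be technical.

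IgG bound to an antigen clusters Fc gamma receptors on the neutrophil surface. The activating receptors CD64 (Fcgr1), CD16 (Fcgr3) and CD16-2 (Fcgr4) signal through the common gamma chain encoded by Fcer1g, whose cytoplasmic ITAM recruits the kinase Syk, and the chain is also needed to bring these receptors to the surface. CD32B (Fcgr2b) is the inhibitory member: its cytoplasmic ITIM recruits the lipid phosphatase SHIP-1 (Inpp5d) and damps signals of the activating receptors. It is also the Fc gamma receptor of B cells, which lack the activating ones. Mouse neutrophils are known to carry Fcgr3 and Fcgr4 as their main activating receptors, and the weight of activating against inhibitory receptor sets how strongly a cell answers immune complexes.

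In the mouse genome (GRCm38.p6) the low-affinity receptors and the chain lie together on chromosome 1. Fcgr2b was at chr1:170960558-170976071, Fcgr4 at chr1:171018926-171029761, Fcgr3 at chr1:171051169-171065915 and Fcer1g at chr1:171229572-171234349, a stretch of 273.792 kb. Fcgr1 stood apart on chromosome 3, at chr3:96282909-96293969. The RefSeq promoter table of the same build held 4 of the 5 genes. The 250 bases upstream of the start are shown for them, each 5′ to 3′ along the gene's strand, in the order chr3:96293970-96294219, chr1:170976072-170976321, chr1:171059404-171059653 (minus strand) and chr1:171018676-171018925 (plus strand). Any link between these bases and the genes' responses was not tested. Capitals mark TTCCTC, the reverse strand of GAGGAA, a sequence bound by PU.1, a factor that neutrophils need to form.

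Fcgr1: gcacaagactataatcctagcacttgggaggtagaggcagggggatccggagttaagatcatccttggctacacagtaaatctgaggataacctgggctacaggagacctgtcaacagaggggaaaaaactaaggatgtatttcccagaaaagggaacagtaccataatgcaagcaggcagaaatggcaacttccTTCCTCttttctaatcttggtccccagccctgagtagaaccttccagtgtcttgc
Fcgr2b: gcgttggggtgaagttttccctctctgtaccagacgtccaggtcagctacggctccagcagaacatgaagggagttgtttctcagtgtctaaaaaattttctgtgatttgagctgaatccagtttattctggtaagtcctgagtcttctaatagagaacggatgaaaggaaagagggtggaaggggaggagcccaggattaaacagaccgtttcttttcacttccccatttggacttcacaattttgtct
Fcgr3: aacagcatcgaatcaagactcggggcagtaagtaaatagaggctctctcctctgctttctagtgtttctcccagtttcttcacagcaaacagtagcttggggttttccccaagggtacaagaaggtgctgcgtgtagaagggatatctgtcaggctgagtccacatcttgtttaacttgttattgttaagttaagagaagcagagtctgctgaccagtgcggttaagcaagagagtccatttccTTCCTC
Fcgr4: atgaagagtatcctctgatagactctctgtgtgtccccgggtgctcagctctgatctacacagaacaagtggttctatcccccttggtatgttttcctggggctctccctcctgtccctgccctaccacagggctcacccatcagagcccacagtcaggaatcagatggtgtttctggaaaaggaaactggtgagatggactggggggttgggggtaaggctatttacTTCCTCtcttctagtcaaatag

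GAGGAA was searched on both strands, and so was TTCNNNGAA, the spaced repeat bound by STAT factors. Neither pattern contains the other. GAGGAA occurred once in each activating receptor's window, at 55 bases upstream of the start in Fcgr1, 6 in Fcgr3 and 22 in Fcgr4, and not in the window of Fcgr2b. Of 32851 such windows in the table, 23.25% held it. TTCNNNGAA occurred once, in Fcgr1 at 109 bases upstream, and 7.02% of all windows held it. These are matches of letters in a short window, not measured sites. Fcgr3 has 2 starts in the table, both inside the annotated span of the gene given above. The more upstream of these was used, and the region before the outer end of the gene was not searched.

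The arrays were alike in bead number, with a median of 43 to 44 beads per probe, and detected 13227 to 14846 probes (29.2% to 32.8%), where detected means brighter than nearly all negative controls (detection p below 0.05). Median signals ran from 101 to 106 on fresh arrays, while cultured arrays had 99.2 to 108 in the absence of G-CSF and 111 to 124 in its presence. The neutrophil markers were at high levels everywhere: 10 of 10 were detected on every fresh array and 9 or 10 on every cultured array. Markers of other blood cells were also present and lower in the tumor-bearing group. Of 36 tested, 24 were lower and 0 higher than in fresh control, against 15.2% and 10.8% over all tested genes. In culture 35 were tested, and 21 were lower and 0 higher with G-CSF, against 12.3% and 16.6%. The values below are normalized log2 signals unless a scanner signal is named, and since a probe's brightness depends on the probe, levels are compared between arrays and never between genes.

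Fcgr2b, Fcgr3 and Fcgr4 were read on all 10 arrays, whereas the single probes of Fcgr1 and Fcer1g were not above background. The Fcgr1 probe gave scanner signals of 95.2 to 126 and was detected on 0 of 10 arrays. The Fcer1g probe gave 94.6 to 133 and was detected on 1 of 10, the first tumor-bearing array, with a detection p of 0.0363. Neither gene could therefore be compared between conditions here, and a probe at background does not show that the transcript was absent. For Fcer1g, whose chain the surface activating receptors require, a related adaptor, Tyrobp (DAP12), which also carries an ITAM, was read at 11.82 to 13.31 on every array.

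**Figure D1:**
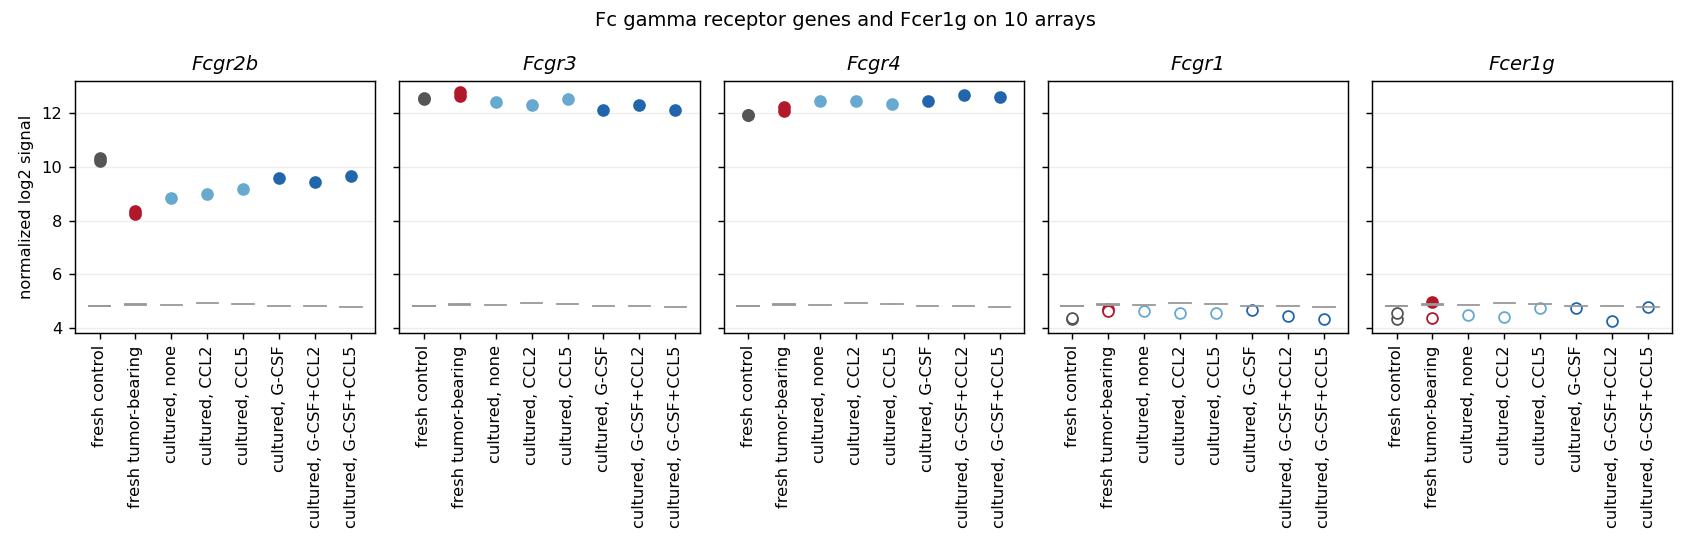
Normalized log2 signal of each gene's brightest single-gene probe (y axis) in the 8 groups (x axis), 1 point per array; filled points were detected, open points were not, and grey dashes mark the lowest level detected on the array. Fcgr2b spans 8.24 to 10.34, Fcgr3 stays between 12.12 and 12.78, Fcgr4 between 11.94 and 12.68, and Fcgr1 and Fcer1g lie at or near the dashes.

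The inhibitory receptor was the member that differed between the fresh groups. The main probe of Fcgr2b, ILMN_1228657, gave scanner signals of 1231 and 1243 on the control arrays and 446 and 449 on the tumor-bearing arrays. After normalization these stood at 10.23 and 10.34 in control and at 8.35 and 8.24 in tumor-bearing cells. Both tumor-bearing arrays were far below both control arrays, and the distance between groups was many times that between replicates. Fcgr2b was 3.96-fold lower in tumor-bearing cells, a log2 change of -1.99 ± 0.19 (SE, n = 2 and 2, limma adjusted p = 1.01e-05). Of 8019 genes tested, 0.673% changed as far downward or further.

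Fcgr2b is represented by 5 probes, and the other one detected on all arrays gave the same direction. ILMN_3102376 stood at 8.67 and 8.96 in control and at 6.64 and 7.24 in tumor-bearing cells, a change of -1.87 ± 0.23 (limma adjusted p = 0.000124). The remaining 3 probes lay near background: ILMN_3029178 was detected on 7 of 10 arrays, ILMN_2577664 on 6 and ILMN_2447970 on 0. Of these, ILMN_3029178 could be tested and changed by -0.29 (limma adjusted p = 0.327). The extracellular parts of Fcgr2b and Fcgr3 are very similar in sequence in the mouse. Whether a probe of one also binds the other's transcript was not tested, and the Fcgr3 probe did not share the fall.

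**Figure D2:**
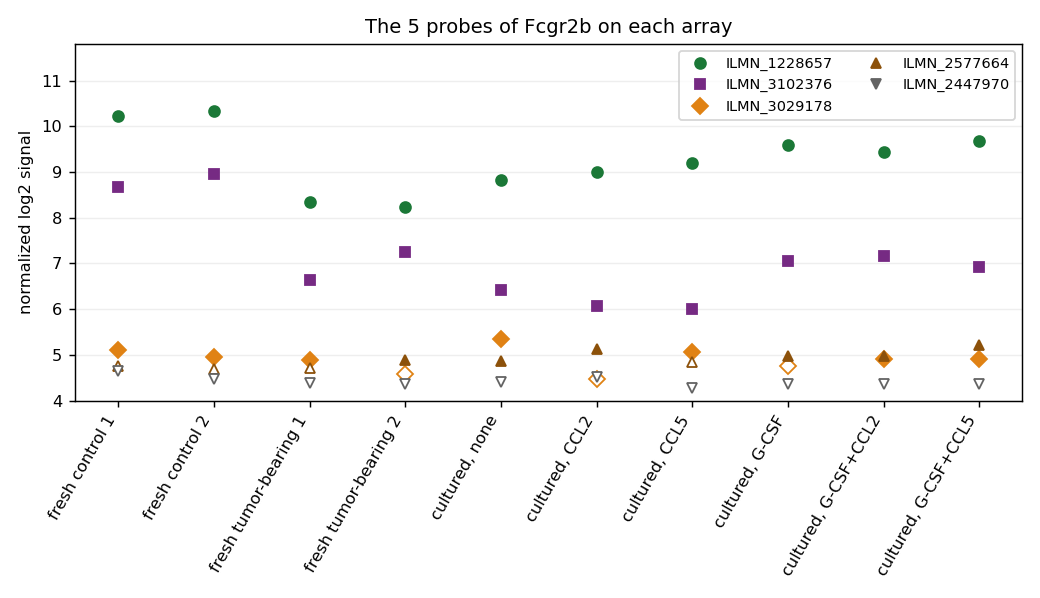
Normalized log2 signal (y axis) of the 5 Fcgr2b probes on each of the 10 arrays (x axis); filled symbols were detected and open ones were not. Both bright probes are lower on the tumor-bearing and cultured arrays than on the fresh control arrays, and the 3 dim probes stay between 4.27 and 5.34.

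The activating receptors did not pass the test between the same arrays. Fcgr3 gave scanner signals of 5706 and 5332 in control and 8352 and 7617 in tumor-bearing cells, and 12.56, 12.52, 12.78 and 12.65 after normalization. The tumor-bearing arrays were slightly higher without overlap, by 0.17 ± 0.18 (95% interval -0.23 to 0.57, limma adjusted p = 0.538). Fcgr4 gave scanner signals of 3822 and 3618 in control and 5189 and 5929 in tumor-bearing cells. Its normalized values were 11.94 and 11.95 against 12.10 and 12.23, again without overlap, and differed by 0.22 ± 0.18 (95% interval -0.18 to 0.62, limma adjusted p = 0.417). The upper ends of these intervals are 1.49-fold for Fcgr3 and 1.54-fold for Fcgr4. Under median scaling in place of quantile normalization the differences were larger, 0.46 ± 0.20 for Fcgr3 (limma adjusted p = 0.0968) and 0.51 ± 0.20 for Fcgr4 (limma adjusted p = 0.0687), so the size of a possible rise depends on the scaling. In this comparison 1 of the 3 members tested passed, and 26% of all tested genes did (15.2% lower, 10.8% higher).

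Because Fcgr2b fell and the activating receptors did not, the distance between them on the same array widened. Fcgr3 minus Fcgr2b was 2.19 and 2.33 on the control arrays and 4.41 and 4.43 on the tumor-bearing arrays, and the change of 2.16 corresponds to a 4.46-fold shift of activating over inhibitory transcript. Fcgr4 minus Fcgr2b went from 1.61 and 1.71 to 3.75 and 3.99, a shift of 2.21 or 4.61-fold. Only the shifts can be read, not the distances, since they are between different probes. Exact two-sided permutation tests gave p = 0.333 for both pairs, the smallest value that 2 arrays against 2 allow.

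B cells carry Fcgr2b, and their markers fell in the same comparison. The summed normalized signal of 6 B cell markers (Cd79b, Cd22, Fcrla, Ms4a1, Blnk and Pax5) was 2306 to 2735 on control arrays and 375 to 425 on tumor-bearing arrays. Of the 6, 5 were lower and 0 higher, against 15.2% and 10.8% over all tested genes. Their median change was -1.97 against -0.04, and Ms4a1 (CD20) was not detected on either tumor-bearing array. Cd79b, a chain of the B cell receptor, changed by -3.05 ± 0.20 (limma adjusted p = 9.74e-07). The part of B cells in the fall of Fcgr2b was not tested, and in bulk RNA fewer cells of a type and less RNA per cell cannot be told apart. Monocytes also carry Fc gamma receptors: 3 of 7 tested markers were lower and 0 higher (median -0.21), against 15.2% and 10.8% over all tested genes. Their summed signal was 2900 to 2942 in control and 2646 to 2780 in tumor-bearing cells. Ccr2, which defines inflammatory monocytes, was detected in neither group, while 7 monocyte markers were detected on each fresh array. Of 5 tested dendritic cell markers 3 were lower and 0 higher (median -1.80). Their sum was 4867 to 6675 in control and 1093 to 1276 in tumor-bearing cells. The dendritic cell list held Flt3, Siglech, Ciita, H2-Ab1, Cd74, H2-Aa and Itgax, and B cells also express some of these, such as H2-Ab1 and Cd74. Flt3 was detected in neither fresh group. Each marker list may also hold genes that neutrophils express at some level. The part of monocytes and dendritic cells was not tested either.

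**Figure D3:**
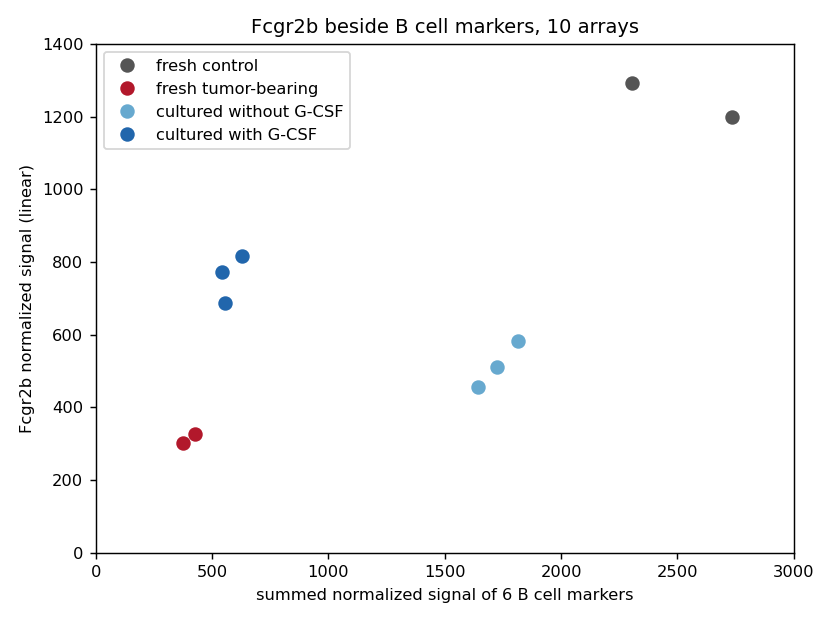
Normalized linear signal of Fcgr2b (y axis) against the summed normalized linear signal of 6 B cell markers (x axis), 1 point per array. Fresh control arrays are high on both axes and tumor-bearing arrays low on both, while the 3 cultured arrays with G-CSF hold 688 to 816 for Fcgr2b at a marker sum of 541 to 629, and those without hold 456 to 584 at 1644 to 1814.

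In culture, Fcgr2b was higher with G-CSF. Scanner signals were 453 without addition, 456 with CCL2 and 577 with CCL5, against 1072, 814 and 1141 in the matching wells with G-CSF. The normalized values were 8.83, 8.996 and 9.19 without G-CSF and 9.60, 9.43 and 9.67 with it, and the groups did not overlap. The rise was 0.76 without chemokine, 0.43 with CCL2 and 0.48 with CCL5, so that all 3 pairs moved the same way. The additive fit put it at 0.56 ± 0.16, or 1.47-fold (95% interval 0.19 to 0.93, n = 3 and 3, limma adjusted p = 0.0322).

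The second bright probe of Fcgr2b showed a larger rise. ILMN_3102376 stood at 6.42, 6.07 and 6.004 without G-CSF and at 7.05, 7.17 and 6.92 with it, a change of 0.88 ± 0.18 (limma adjusted p = 0.00606). On the main probe the call depended on the arrays and probes used. The change was 0.46 with an adjusted p of 0.151 without the untreated array or without the G-CSF array, each of which removes that pair from the estimate. It was 0.60 with an adjusted p of 0.0837 without the CCL5 array or without the array of G-CSF with CCL5, and 0.36 with an adjusted p of 0.0910 when all detected probes of the gene were averaged (all from limma).

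The activating receptors did not pass the test with G-CSF. Fcgr3 stood at 12.43, 12.29 and 12.54 without G-CSF and at 12.12, 12.32 and 12.12 with it, and the groups overlapped. The difference was -0.23 ± 0.17 (95% interval -0.61 to 0.15, limma adjusted p = 0.339), and under median scaling in place of quantile normalization it was 0.00011, or -0.41 relative to the median of all tested genes. Fcgr4 stood at 12.44, 12.46 and 12.35 without G-CSF and at 12.46, 12.68 and 12.60 with it, a difference of 0.16 ± 0.16 (95% interval -0.20 to 0.52, limma adjusted p = 0.483). Of the 3 members tested 1 passed, against 28.9% of 8610 genes (16.6% higher, 12.3% lower). Fcgr3 minus Fcgr2b on the same array was 3.30 to 3.60 without G-CSF and 2.45 to 2.90 with it, a shift of -0.79 (exact permutation p = 0.1, the smallest possible for 3 against 3). Fcgr4 minus Fcgr2b shifted by -0.40 (exact permutation p = 0.2), with overlap.

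Here the B cell markers did not move with Fcgr2b. Of the 6 markers, 4 were lower and 0 higher with G-CSF, against 12.3% and 16.6% over all tested genes. Their median change was -0.94 against 0.06, and their summed signal was 1644 to 1814 without and 541 to 629 with G-CSF. Cd79b changed by -1.83 ± 0.15 (limma adjusted p = 0.000191) while Fcgr2b rose. The monocyte sum was 2299 to 2402 without and 2302 to 2571 with G-CSF, and 2 of 8 tested monocyte markers were lower and 0 higher. Arrays with G-CSF were also brighter at the upper end, with a 95th percentile of scanner signals at 775 to 939.6 against 564 to 638. Under median scaling the change of Fcgr2b was 1.07, while the median change of all tested genes moved from 0.06 to 0.41. Relative to that median Fcgr2b changed by 0.50 under quantile normalization and by 0.65 under median scaling.

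**Figure D4:**
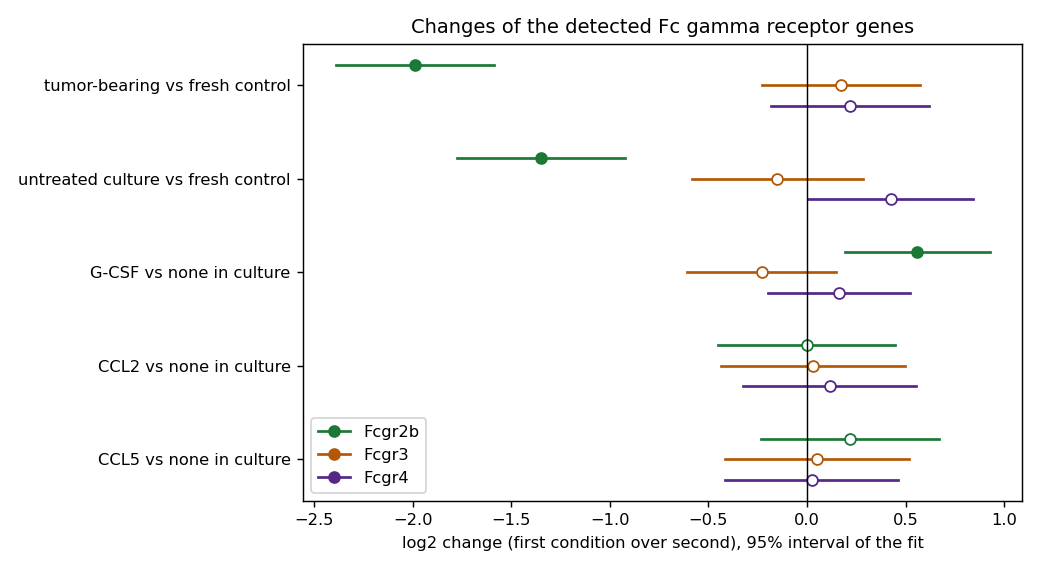
Log2 change with its 95% interval (x axis) of Fcgr2b, Fcgr3 and Fcgr4 in 5 comparisons (y axis), the first condition named over the second; filled points passed an adjusted p of 0.05. Fcgr2b passes in the tumor-bearing, untreated culture and G-CSF comparisons and the other genes pass in none.

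The tumor-bearing and G-CSF comparisons share no arrays, so their effects on Fcgr2b could be tested against each other. G-CSF is the growth factor that raises neutrophil output. The effects ran in opposite directions: the tumor-bearing effect minus the G-CSF effect was -2.55 ± 0.24 on the main probe (limma adjusted p = 2.85e-05) and -2.75 ± 0.30 on ILMN_3102376 (limma adjusted p = 5.89e-05). Of 9744 genes tested, 21.1% passed this comparison (13.2% lower, 7.88% higher) and 0.113% differed as far downward or further. Fcgr3 differed by 0.40 ± 0.24 (95% interval -0.12 to 0.92, limma adjusted p = 0.266) and Fcgr4 by 0.06 ± 0.23 (95% interval -0.44 to 0.56, limma adjusted p = 0.896). The summed B cell markers fell in both comparisons, as given above. The effects start from different baselines. On the main probe Fcgr2b stood at 8.83 in the untreated well, against 10.23 and 10.34 in fresh control. With G-CSF it stood at 9.43 to 9.67, still below fresh control.

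CCL2 and CCL5, chemokines that draw monocytes and lymphocytes, left the members within error. Neither Fcgr2b, Fcgr3 nor Fcgr4 passed, nor did any of 8610 genes (0% called by limma; 5.08% for CCL2 and 4.08% for CCL5 had an unadjusted p below 0.05). With CCL2, Fcgr2b changed by -0.0023, Fcgr3 by 0.03 and Fcgr4 by 0.11, and the 95% intervals ran from -0.45 to 0.45, from -0.44 to 0.50 and from -0.32 to 0.55. With CCL5 the changes were 0.22, 0.05 and 0.02, with intervals from -0.23 to 0.67, from -0.41 to 0.52 and from -0.42 to 0.46. All 6 adjusted p-values were 0.99 or higher. These intervals allow changes of up to about 1.59-fold, so they do not show that the receptors were unaffected. The chemokine effects did not differ detectably with and without G-CSF for any member (Fcgr2b -0.33 for CCL2 and -0.28 for CCL5), and 0% of 9744 genes were called (9.07% and 7.26% at an unadjusted p below 0.05). That test borrows its spread from the fresh pairs.

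Cells kept for 2 h without addition also had less Fcgr2b than fresh control cells. The untreated culture array stood at 8.83 on the main probe against 10.23 and 10.34, and the fitted change was -1.35 ± 0.20, or 2.54-fold lower (limma adjusted p = 0.000146). With 1 untreated array, its level and spread in this fit come from all cultured arrays and the fresh pairs, assuming that G-CSF and chemokine effects add up. The other bright probe fell further, by 2.52 ± 0.25 on the log2 scale (limma adjusted p = 3.76e-06), so the 2 probes disagree on the size by more than 1 log2 unit. The dimmer probe minus the brighter one was -1.71 to -0.999 on the 4 fresh arrays and -3.19 to -2.26 on the 6 cultured arrays, with no overlap.

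Fcgr3 changed by -0.15 ± 0.20 (limma adjusted p = 0.616) and Fcgr4 by 0.42 ± 0.19 (95% interval 0.01 to 0.84, limma adjusted p = 0.110) in untreated culture. Of the 3 members 1 passed, and 34.2% of 9744 genes passed (16.4% higher, 17.8% lower). The Fcgr4 call depended on background correction: without it the change was 0.42 with an adjusted p of 0.00713. Markers of several cell types were lower in untreated culture too, but those listed for T cells went the other way. Of 6 tested T cell markers 4 were higher and 1 lower (median 0.89). Their sum was 1617 to 1707 on fresh control arrays and 3838 to 4060 on cultured arrays without G-CSF. Cd4, Cd8a and Lat, also on that list, were detected on no cultured array without G-CSF, and these mice lack normal T cells. Which cells the rise came from was not tested. Of the B cell markers 3 of 6 were lower (median -0.55), of the monocyte markers 4 of 8 (median -0.70, 1 higher), of the NK cell markers 3 of 3 (median -0.92) and of the neutrophil markers 5 of 10 (median -0.47, 2 higher). The monocyte sum was 2900 to 2942 on fresh control arrays and 2299 to 2402 on cultured arrays without G-CSF. Of 40 tested markers of all other blood cells 17 were lower and 6 higher. The part of these cells in the fall of Fcgr2b was not tested, and other differences between the fresh and the cultured arrays cannot be told apart from culture.

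Across all conditions the order of levels differed between the genes. On its main probe Fcgr2b was highest in fresh control (10.23 to 10.34), then in culture with G-CSF (9.43 to 9.67), culture without it (8.83 to 9.19) and tumor-bearing cells (8.24 to 8.35), with no overlap between neighbours. On ILMN_3102376 fresh control was again highest (8.67 to 8.96), but tumor-bearing cells (6.64 to 7.24) overlapped culture with G-CSF (6.92 to 7.17) and lay above culture without it (6.004 to 6.42). The place of tumor-bearing cells in the order thus depended on the probe. Fcgr3 was highest in tumor-bearing cells (12.65 to 12.78) and fresh control (12.52 to 12.56), followed by culture without G-CSF (12.29 to 12.54) and with it (12.12 to 12.32), and neighbours from fresh control downward overlapped. Fcgr4 ran from culture with G-CSF (12.46 to 12.68) through culture without it (12.35 to 12.46) and tumor-bearing cells (12.10 to 12.23) to fresh control (11.94 to 11.95). Tumor-bearing cells were not tested against cultured cells. Over the 10 arrays Fcgr3 and Fcgr4 correlated at -0.72, Fcgr2b and Fcgr3 at -0.38, and Fcgr2b and Fcgr4 at -0.21. These are descriptions over arrays that share groups and a normalization.

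The genes most like each member over the 10 arrays were not other members. Among 5596 genes detected on all arrays, Fcgr2b followed Tmem181a (Pearson r = 0.960), Rplp2 (0.958), a protein of the large ribosomal subunit, and Itpripl1 (0.944). Fcgr3 followed Rlf (0.983), Srgn (0.956), which encodes the granule proteoglycan serglycin, and the transcription factor Klf5 (0.938). Fcgr4 followed the aspartic protease Napsa (0.972), the Mediator subunit Med11 (0.971) and the kinase Prkx (0.970). With so few arrays, correlations of this height are a ranking and no test.

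The kinases, adaptors and lipid enzymes that carry the signal inward changed in both directions. Of 25 tested genes of Fc receptor signalling, 3 were higher and 3 lower in tumor-bearing cells, against 10.8% higher and 15.2% lower over all tested genes, and their median of -0.04 was that of all tested genes. Syk, the kinase that docks on the ITAM, stood at 7.43 and 7.82 in control and 8.12 and 8.36 in tumor-bearing cells, a rise of 0.62 ± 0.20 (limma adjusted p = 0.0420). Leaving out single arrays moved it between 0.42 and 0.81 and its call was lost without the first control array or without either tumor-bearing array (adjusted p up to 0.230). Pik3r5, a regulatory subunit of PI3K gamma, rose by 0.76 ± 0.19 and Card9, an adaptor of ITAM receptors, by 0.70 ± 0.21, and both calls were lost without the first tumor-bearing array or without background correction. On neither control array was Pik3r5 detected (4.66 and 4.76, against 5.57 and 5.36 in tumor-bearing cells), so the size of its rise is uncertain. The adaptor Lat2 (-0.91 ± 0.19, limma adjusted p = 0.00450), the phospholipase Plcg2 (-0.79 ± 0.21) and the kinase Tec (-0.69 ± 0.18) were lower, all 3 of them known from B cells too. The Plcg2 call was lost without the second tumor-bearing array, and that of Tec without the first control array or either tumor-bearing array. Both were also lost under median scaling. Tyrobp stood at 13.25 and 13.31 in control and 13.08 and 12.92 in tumor-bearing cells and did not pass (-0.28 ± 0.19, limma adjusted p = 0.299; 0.01 under median scaling).

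With G-CSF 1 of the 25 was higher and 3 lower (16.6% and 12.3% over all tested genes), with a median of 0.06, again that of all tested genes. Pik3cg, the catalytic subunit of PI3K gamma, rose by 1.19 ± 0.16 (limma adjusted p = 0.00134). The adaptor Gab2 fell by 1.10 ± 0.16 on the log2 scale, with Nfatc1 at -0.67 ± 0.18 and Pik3r1 at -0.54 ± 0.17 also lower. The call of Nfatc1 was lost without any 1 of the 4 chemokine arrays, that of Pik3r1 without any 1 of the 4 arrays that lacked CCL2, and both under median scaling. That of Gab2 was lost when its probes were averaged. Syk (0.32 ± 0.23) and Tyrobp (-0.16 ± 0.16) did not pass, with limma adjusted p-values of 0.340 and 0.499. Syk stood at -0.03 without the CCL5 array, and Tyrobp at 0.11 under median scaling.

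Untreated culture had 4 of 26 higher and 7 lower, against 16.4% and 17.8% over all tested genes. Syk fell by 0.86 ± 0.28 on the log2 scale (limma adjusted p = 0.0299, call lost without the second control array) and Tyrobp by 1.33 ± 0.19 (limma adjusted p = 0.000140), from 13.25 and 13.31 on the fresh control arrays to 11.91 in the untreated well. The PI3K delta subunit Pik3cd (-1.89), the adaptors Gab3 (-1.59) and Lcp2 (-1.11, SLP-76) were lower, and Nfatc1 (1.23), Sh3bp2 (0.88) and Cbl (0.82) higher.

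The enzymes that act below ITIM receptors went both ways. In tumor-bearing cells 2 of 10 were higher and 2 lower (10.8% and 15.2% over all tested genes; median -0.26 against -0.04). Pag1, an adaptor that holds the kinase Csk, rose by 0.90 ± 0.18 (limma adjusted p = 0.00338) and the phosphatase Ptprc (CD45) by 0.60 ± 0.20, whereas Inppl1 (SHIP-2) at -0.61 ± 0.20 and the adaptor Dok2 at -0.67 ± 0.22 were lower. Of the 4, only Pag1 kept its call whichever single fresh array was left out. Inppl1 and Dok2 also lost theirs under median scaling. Inpp5d, the phosphatase recruited by Fcgr2b, changed by -0.32 ± 0.21 and did not pass (limma adjusted p = 0.293). With G-CSF 2 of 10 were higher and 2 lower (16.6% and 12.3% over all tested genes): Pag1 (0.79 ± 0.21, lost without the untreated or the G-CSF array) and Ptpn11 (0.48 ± 0.15, lost without any 1 cultured array) rose, and Dok2 fell by 1.57 ± 0.16 on the log2 scale (limma adjusted p = 0.000408). Inpp5d fell by 0.49 ± 0.16 on the log2 scale (limma adjusted p = 0.0494), a call lost when any single cultured array was left out. The call was also lost under median scaling and when dim probes were kept. Over all alternatives its change ranged from -0.59 to -0.07. In untreated culture, where 16.4% of all tested genes were higher and 17.8% lower, 4 of 10 were higher, among them Dok2 (2.03), Inpp5d (0.82, lost without the second control array) and Ptpn11 (0.81), and 2 lower, Pag1 (-2.05) and Ptprc (-0.997).

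Genes listed as partners of Fcer1g or Tyrobp were read too. The list counts Tyrobp itself and also holds Treml2, which is not known to pair with either chain. In tumor-bearing cells 3 of 15 tested were higher and 0 lower, against 10.8% and 15.2% over all tested genes (median 0.04 against -0.04). Clec4e (Mincle), which signals through Fcer1g, rose by 1.03 ± 0.20 (limma adjusted p = 0.00241), and Trem1 (0.54 ± 0.18) and Sirpb1a (0.54 ± 0.19), which use Tyrobp, were also higher. Trem1 lost its call when any single fresh array was left out and Sirpb1a when the second control array or either tumor-bearing array was. With G-CSF 0 of 14 were higher and 3 lower, against 16.6% and 12.3% (median -0.18 against 0.06): Cd300lb fell by 1.34 ± 0.21 on the log2 scale (limma adjusted p = 0.00272), Clec4n (Dectin-2) by 1.21 ± 0.17 (limma adjusted p = 0.00153) and Clec5a by 0.75 ± 0.20, a call lost without any 1 of the 4 chemokine arrays. The Clec5a call was also lost under median scaling. In untreated culture 4 of 17 were higher and 4 lower, against 16.4% and 17.8% over all tested genes. Clec4n rose by 4.13 ± 0.21, Clec5a by 3.64 ± 0.24 and Clec4e by 2.00 ± 0.21, all far beyond error (limma adjusted p from 1.85e-08 to 8.20e-06), while Treml2 (-1.56) and Fcer1a (-1.10), the alpha chain of the IgE receptor, were lower beside Tyrobp.

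Of 13 tested genes listed as other ITIM receptors, 5 were lower and 2 higher in tumor-bearing cells. The shares over all tested genes were 15.2% and 10.8%, and the median change was -0.40 against -0.04. The list also holds Clec4a1, which is not known to carry an ITIM. The falls were led by Cd22 (-2.50 ± 0.19), Cd72 (-2.30 ± 0.21) and Siglecg (-2.14 ± 0.21), which are inhibitory receptors of B cells (limma adjusted p from 1.95e-06 to 1.42e-05). Lilrb4a (0.72 ± 0.21) and Cd300lf (0.56 ± 0.19), receptors of myeloid cells, were higher, and both calls were lost without the first control array or either tumor-bearing array. With G-CSF 6 of 13 were lower and 2 higher, against 12.3% and 16.6% (median -0.30 against 0.06). Cd72 (-1.71 ± 0.16) and Siglecg (-1.59 ± 0.18) were lower, and so was Ceacam1 (-0.78 ± 0.16), whose call was lost under median scaling. Clec4a1 (0.84 ± 0.18, lost without either CCL5 array) and the collagen receptor Lair1 (0.81 ± 0.19, lost without the untreated or the G-CSF array) were higher. Fcgr2b, itself an ITIM receptor, rose in the G-CSF comparison in which these B cell receptors fell. In untreated culture 4 of 13 were higher (16.4% over all tested genes), among them Siglece (2.31), Clec4a1 (1.80) and Ceacam1 (1.49), and 4 lower (17.8%), among them Cd22 (-2.76), Siglecg (-2.61) and Sirpa (-1.09). The change of Sirpa was 0.04 when its detected probes were averaged.

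Several other Fc receptors and Fc receptor-like genes fell. Of 7 tested in tumor-bearing cells 4 were lower and 0 higher, against 15.2% and 10.8% over all tested genes, with a median of -1.20 against -0.04. The log2 change was -2.55 ± 0.19 for Fcmr, the receptor for IgM, -2.55 ± 0.20 for Fcrla, an Fc receptor-like protein of B cells, and -1.97 ± 0.21 for Fcgrt, the neonatal Fc receptor that recycles IgG (limma adjusted p from 1.96e-06 to 2.42e-05). With G-CSF 5 of 8 were lower and 0 higher, against 12.3% and 16.6% (median -1.12 against 0.06), among them Fcrla (-1.66 ± 0.16), the low-affinity IgE receptor Fcer2a (-1.60 ± 0.16) and Fcmr (-1.58 ± 0.18). In untreated culture 1 of 9 was lower, Fcer1a, and 0 higher, against 17.8% and 16.4%. Fcmr, Fcrla and Fcer2a are B cell genes, and the B cell sums given above fell in both comparisons. Fcrla is itself part of those sums. The part of B cells in these falls was not tested.

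**Figure D5:**
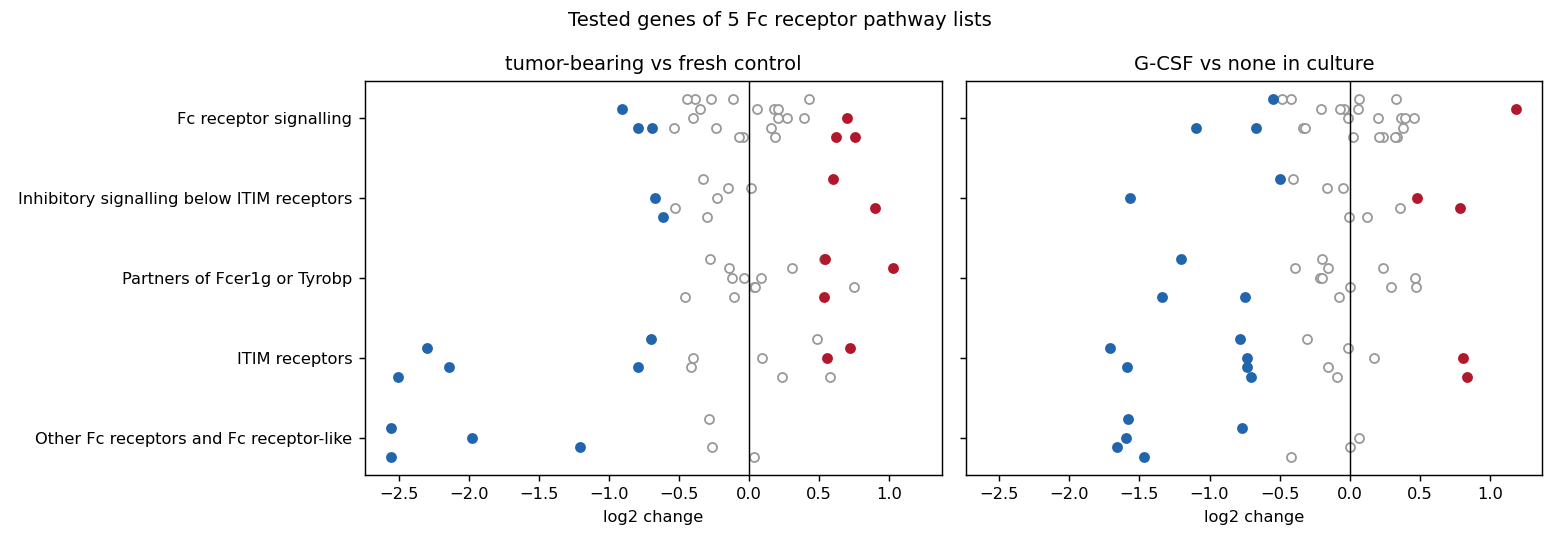
Log2 change (x axis) of every tested gene of 5 lists of the Fc receptor pathway (y axis), tumor-bearing over fresh control on the left and G-CSF over none in culture on the right; red points were higher and blue points lower at an adjusted p of 0.05, and open points did not pass. The falls below -1.5 lie in the ITIM receptor, other Fc receptor and inhibitory signalling lists, while the Fc receptor signalling genes stay between -1.10 and 1.19.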

How the data were processed

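Average bead signal intensities, the count of beads, bead standard errors (other) and detection p-values were deposited for each probe and array, per the file headers. The authors' second table holds log2 values, which differ by at most 0.00531 from signals that were only log2-transformed and quantile-normalized. Partek is named in the submitters' processing notes; its role is not given in the sources used here. From the unprocessed signals, values were computed in R 4.3.3 with limma 3.58.1: normexp correction with negative controls inferred from detection p-values (offset 16), log2 and quantile normalization over 10 arrays. A probe entered a fit if 2 or more of its arrays detected it (p below 0.05). A gene was read from the brightest probe that names it alone. Background correction widens changes of dim probes, and quantile normalization removes differences in brightness. The number of arrays limits the precision.

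Fresh arrays were compared in a fit of 4 arrays, G-CSF and chemokines additively over the 6 cultured arrays (2 residual degrees of freedom), and culture against fresh, or the difference of effects, in a fit of all 10. Moderated tests were two-sided with Benjamini-Hochberg adjustment at 0.05 over all genes of a fit, and were tested on simulated data. Errors are standard errors. The replicate numbers of the fresh arrays were not used as a pairing. The correlation of deviations was 0.0707 over probes, but 2 pairs cannot show whether the arrays were paired. The members, pathway and marker lists and alternatives were chosen with earlier results of these data known. Per comparison, each list gave at most 3 risers and 3 fallers by smallest p, and Tyrobp and Syk always; Inpp5d in the tumor-bearing comparison, Cd79b, Ms4a1 and Ccr2 were named outside that rule, after their values were seen.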

Additional observations from a re-analysis of the deposited data

Results flagged for a closer look

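Several results stood out because the tumor-bearing effect and the G-CSF effect differed in a direct test (limma over all 10 arrays, adjusted p below 0.05). Among the receptors, the difference for Fcgr2b was -2.55 (adjusted p = 2.85e-05), with a fall in tumor-bearing cells and a rise with G-CSF. That rise started from the lower level of cultured cells and did not reach fresh control.

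Of the pathway genes, those with a more positive effect in tumor-bearing cells were Clec4n (1.74), Cd300lf (1.29), Ceacam1 (1.27), Cd300lb (1.23), Gab2 (1.05), Ptprc (1.01), Dok2 (0.89), Nfatc1 (0.83) and Clec4e (0.79). Those with a more negative effect were Cd22 (-1.80), Pik3cg (-1.54), Fcgrt (-1.20), Plcg2 (-1.18), Fcmr (-0.97), Fcrla (-0.89) and Ptpn11 (-0.71). Cd22, Cd300lf, Ceacam1, Clec4n and Pik3cg passed under every alternative run for them. Each of the others lost its call in at least 1 alternative, from 1 of 17 for Plcg2 and Cd300lb to 11 of 17 for Ptpn11.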

How the results depend on the processing

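The fall of Fcgr2b in tumor-bearing cells passed in 13 of 13 alternatives (-2.04 to -1.38), that in untreated culture in 9 of 9 (-1.49 to -0.91), and the difference between the tumor-bearing and G-CSF effects in 17 of 17 (-2.82 to -1.38). The G-CSF rise of Fcgr2b passed in only 9 of 14 alternatives. It ranged from 0.36, with all detected probes averaged, to 1.07, and from 0.46 to 0.62 with single arrays left out. Adjusted p-values are from limma throughout.

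With the replicate block, 2316 genes passed in the tumor-bearing comparison in place of 2086, Fcgr2b stayed at -1.99 and no call of a member changed. The counts of called genes with single arrays left out ran from 1175 to 2133 for tumor-bearing cells (1175 and 1351 without one or the other tumor-bearing array), from 1420 to 2040 for G-CSF (2485 with all), from 0 to 1 for CCL2 and from 1133 to 1854 for the difference of effects (2059 with all). Median scaling gave 4512 genes for G-CSF (88.9% of them higher, against 57.3%) and 3176 for the difference of effects (15.4% higher, against 37.3%). It moved the median change of all tested genes from 0.06 to 0.41 for G-CSF, from -0.0093 to -0.16 for CCL2, from -0.02 to -0.13 for untreated culture and from -0.09 to -0.33 for the difference of effects. Relative to that median Fcgr2b stood at -1.37 in untreated culture and -2.49 in the difference. The share higher in untreated culture went from 47.9% to 35.0%.

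Under median scaling the sign turned for Fcgr3 with G-CSF (0.00011) and with CCL2 (-0.16), Fcgr4 with CCL2 (-0.0458), and Tyrobp in tumor-bearing cells (0.0135) and with G-CSF (0.11). With single arrays left out, signs turned within -0.16 to 0.15 for Fcgr2b with CCL2, -0.17 to 0.23 for Fcgr3 with CCL2, -0.0870 to 0.19 for Fcgr3 with CCL5, -0.0843 to 0.13 for Fcgr4 with CCL5 and -0.0150 to 0.12 for Fcgr4 in the difference of effects, and Syk with G-CSF ranged from -0.0268 to 0.58. Averaging probes turned Sirpa in untreated culture (0.0430) and the differences of the chemokine effects on Fcgr2b with and without G-CSF (0.22 for CCL2, 0.18 for CCL5). Fcgr4 in untreated culture passed at 0.42 without background correction (adjusted p = 0.00713), with an offset of 50 (0.0225) and with the deposited values (0.00714). The causes were not tested. Over the named pathway genes, 889 alternatives kept the direction and side of the threshold, 165 lost the call, 1 gained it and 5 turned.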

Other observations

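The 2 bright probes of Fcgr2b did not keep a fixed distance. On the log2 scale the dimmer minus the brighter probe was -1.56 and -1.38 in fresh control, -1.71 and -0.999 in tumor-bearing cells, -2.41 in untreated culture, -2.92 with CCL2, -3.19 with CCL5, -2.55 with G-CSF, -2.26 with G-CSF and CCL2, and -2.75 with G-CSF and CCL5. All 6 cultured arrays lay below all 4 fresh arrays. Where each probe lies in the transcripts was not used here.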
